A study of Mus musculus with 12 samples.

Results

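The cytosolic ribosomal protein genes encode the protein parts of the large (Rpl) and small (Rps) subunit of the ribosome that translates cytosolic messages. They were taken by symbol from both deposited tables (Rpl or Rps followed by a number, with the suffixes a, x, y or l, plus Rpsa, Rplp0, Rplp1 and Rplp2), leaving out pseudogenes named with -ps and the Rps6 kinases. The rule found 83 genes of 17952 listed in all, 51 of the large and 32 of the small subunit, and all 83 were listed in both tables. Fau and Rack1, which also encode proteins of the ribosome, lie outside the rule and are given in a list of their own.

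Bulk RNA was sequenced from cells of the infarct zone of mouse hearts. All animals carried p16-2A-CreER, an allele that puts a Cre recombinase switched on by tamoxifen under the p16 promoter, and the R26-mTmG reporter, whose green fluorescence appears in a cell and its descendants once Cre has acted. All had a myocardial infarction, tamoxifen by gavage on day 5 and harvest on day 7, and cardiomyocytes were removed before the sort. The 4 groups of 3 libraries were P16hiPDGFRahi and P16loPDGFRahi (high or low green fluorescence, high PDGFRα, a receptor of fibroblasts) and P16hiF480hi and P16loF480hi (high or low green fluorescence, high F4/80, a surface protein of macrophages). Green fluorescence records Cre activity around the time of tamoxifen, so a P16lo cell may have used the locus at another time. Age, sex and strain are not stated in the labels, nor is it stated whether each replicate was a different animal. The p-values therefore rest on the spread of these samples alone, and that spread may be technical. In bulk samples, fewer cells of a type and less RNA per cell cannot be told apart.

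Every cell needs ribosomes, and the ribosomal protein genes are among the most strongly transcribed genes of a mammalian cell. Their messages begin with a C followed by a run of pyrimidines, the 5′ terminal oligopyrimidine (TOP) motif, through which mTORC1 and Larp1 control how much of each message is translated, while the transcription of many of the genes responds to Myc. Free Rpl5 and Rpl11, bound to 5S ribosomal RNA, inhibit Mdm2 and so stabilise p53. A few members have paralogs used mainly in certain tissues, of which Rpl3l, made in heart and skeletal muscle, is one.

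The start of the transcript is the sequence these genes are known for. As examples, it is shown for 6 members with the motif and for 3 paralogs without it at the listed start. RefSeq's table for GRCm38.p6, which gives 250 bases before each start and 50 from it, held 63 of the 83 members by gene identifier. A C followed by at least 4 bases of C or T, read on the gene's own strand from the listed start, was present in 14 of these 63 members (22.2%) and in 3.01% of all 27025 genes of the table. Only a run beginning exactly at a listed start was counted, so a start listed a few bases off would miss it. The share therefore does not give how many of the messages carry the motif. Absence at the listed start was not particular to paralogs. Core members such as Rpl22, Rpl39, Rpl5, Rpl11 and Rps19 also lacked the motif there. The paralog Rpl32l had it, while Rpl39l and Rpl7l1 did not. The 63 members had 75 listed starts, so some had several, and the windows shown for Rpl38 and Rps27l lie inside the gene. The letters CCGGAAG, searched on both strands of the whole window with overlaps between the motifs allowed, were present in 26 of the 63 members (41.3%) and in 9.93% of all genes. In the lines that follow, each sequence runs 5′ to 3′ from 10 bases before the start to 20 bases from it, and capitals mark the pyrimidine run.
Rps27: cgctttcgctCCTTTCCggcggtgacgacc
Rpl35: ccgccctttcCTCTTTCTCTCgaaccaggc
Rps6: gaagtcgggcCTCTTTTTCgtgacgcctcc
Rpl28: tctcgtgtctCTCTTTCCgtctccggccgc
Rpl38: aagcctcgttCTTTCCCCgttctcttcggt
Rps18: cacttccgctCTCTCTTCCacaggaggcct
Rpl22l1: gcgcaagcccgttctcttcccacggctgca
Rps27l: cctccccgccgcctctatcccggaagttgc
Rpl3l: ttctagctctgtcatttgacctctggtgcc
The windows lie at chr3:90213629-90213658 (minus strand) for Rps27, chr2:39005112-39005141 (minus) for Rpl35, chr4:86857348-86857377 (minus) for Rps6, chr7:4792955-4792984 (plus) for Rpl28, chr11:114668570-114668599 (plus) for Rpl38 and chr17:33955646-33955675 (minus) for Rps18. Those of the paralogs lie at chr3:28805498-28805527 (plus) for Rpl22l1, chr9:66946076-66946105 (plus) for Rps27l and chr17:24727816-24727845 (plus) for Rpl3l.

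Total counts ran from 3.16 M (M, 1000000 counts; P16hiPDGFRahi 1) to 27.9 M (P16hiF480hi 1), so each library held at least 337067 counts on the members. Several libraries stood apart. Hemoglobin genes took 0.244%, 4.62% and 2.50% of counts in P16hiPDGFRahi 1 to 3, against 0.588%, 18.7% and 44.8% in P16loPDGFRahi 1 to 3. None of the 11 macrophage or 11 fibroblast markers was at 0 in any library, but 4 of the 6 PDGFRα-high libraries held more macrophage than fibroblast marker counts. P16loF480hi 3 had a summed macrophage level of 2990 CPM (counts per 1000000 of the library total), against 17301 to 44457 CPM in the other F480-high libraries, and a summed level of 7140 CPM over the 4 listed B cell markers, against 19.3 to 1519 CPM. Each table is a pair of column blocks whose meaning the labels do not give: in the F480 table, block 1 holds P16hi 2, P16hi 3 and P16lo 3, and block 2 holds P16hi 1, P16lo 1 and P16lo 2.

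The members differed widely in level. Over the 12 libraries, 61 members averaged above 1000 TPM (transcripts per 1000000, a level per length, here rescaled from the deposited FPKM), 5 averaged below 100 TPM, and the median member averaged 1883 TPM. The 5 highest were Rps27, a zinc-binding protein of the small subunit, at 9361 TPM, then Rpl32 at 7198 TPM, Rpl41, the shortest ribosomal protein, at 6436 TPM, Rps23, which lies at the decoding centre, at 6335 TPM and Rpl13 at 5777 TPM. Together they made up 19.2% of the summed mean TPM. The 5 lowest were Rpl39l at 2.57 TPM, Rpl3l at 5.06 TPM, Rpl32l at 20.3 TPM, Rpl7l1 at 31.0 TPM and Rps6, a core protein and the substrate of S6 kinase, at 65.9 TPM. Processed copies of these genes are spread through the mouse genome and reads shared with them may have been split or dropped, so the level of a single member is uncertain. The short genes rest on short counted lengths as well, since the deposited FPKM imply a length of 146 bases for Rps27 and 129 bases for Rpl38.

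The members of a library shared part of their variation. With hemoglobin genes left out of the TPM, the SD of a member's log2(TPM + 1) over the 6 PDGFRα-high libraries had a median of 0.26, and it was 0.14 once each library's median member was subtracted. With hemoglobin kept in, the first of these medians was 0.58, and the hemoglobin share differed between these libraries as given above. Over the 6 F480-high libraries the medians without hemoglobin were 0.47 and 0.23. All 1172 genes averaging over 100 TPM in PDGFRα-high libraries without hemoglobin had a median SD of 0.42 before and 0.52 after the same subtraction, and the 1190 such genes in F480-high libraries had 0.52 and 0.68. The counts of members given for each comparison are therefore not counts of independent observations.

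PDGFRα-high cells, P16hi against P16lo. The ribosomal protein genes were tested singly, not as a group. None passed edgeR's test, and the direction of their median fold change depended on the scaling. They took 10.7%, 8.80% and 7.55% of all counts in P16hi cells (9.0% ± 1.56, SD, n = 3), against 9.998%, 11.01% and 5.94% in P16lo cells (8.98% ± 2.68, SD, n = 3), so the groups overlapped. With the hemoglobin genes left out of the total, the shares were 10.7%, 9.22% and 7.74% in P16hi cells, against 10.1%, 13.5% and 10.8% in P16lo cells. P16hi 1 then lay inside the P16lo range, and P16hi 2 and 3 lay below it. On summed TPM without hemoglobin, which weighs each gene per length, the members made up 20.1%, 19.4% and 18.7% in P16hi cells, below the 23.4%, 28.0% and 24.9% of P16lo cells with no overlap.

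**Figure D1:**
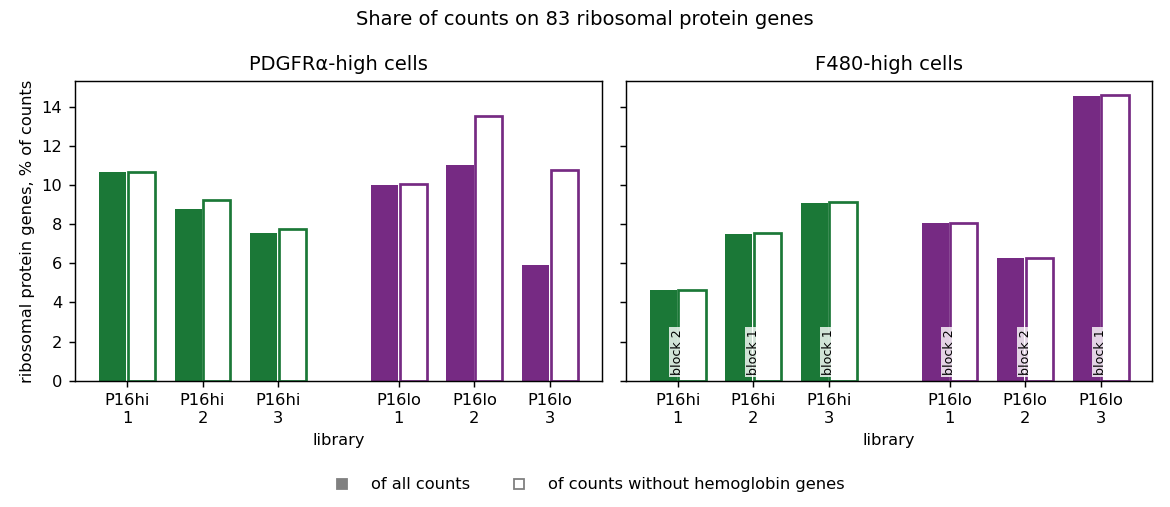
Share of counts (%) on the 83 ribosomal protein genes in each library, of all counts (filled bars) and with hemoglobin genes left out (open bars). Green bars are P16hi and purple bars P16lo; the column block is written on the bars of F480-high cells, where P16lo 3 reaches 14.6%, and leaving out hemoglobin lifts PDGFRα-high P16lo 3 to 10.8%.

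In edgeR's quasi-likelihood test with TMM scaling, adjusted by Benjamini-Hochberg over 13262 genes, 0 of 83 members passed in either direction, where 0% of all genes passed as higher and 0% as lower. At an unadjusted p under 0.05, 1 member was higher (4.80% of all genes) and 0 were lower (1.67% of all genes). Rpl3l was called higher by DESeq2 and by limma on log2(TPM + 1), 1 member in each, and 0 members were called lower. With library totals edgeR called 0 members, beside 0.294% of all genes higher and 0% lower. DESeq2 called 2.21% of all genes higher and 0.0829% lower, and limma called 1.66% higher and 0% lower.

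The median log2 fold change of the members was -0.35 with TMM and 0.01 with library totals only. All genes tested had medians of -0.17 and 0.24 under the same scalings, and relative to these the members stood at -0.18 and -0.23. With TMM, 77 of 83 members had a fold change below 0 (92.8%), as did 59.6% of all genes. With library totals 40 members did (48.2%), beside 35.2% of all genes. With hemoglobin genes left out of the library totals, the members had a median of -0.31, beside -0.10 for all genes. On that scaling 77 of 83 members lay below 0 (92.8%), beside 56.1% of all genes. The large subunit (median -0.33, 48 of 51 below 0) and the small subunit (median -0.37, 29 of 32 below 0) were alike under TMM. On limma's log2(TPM + 1) scale, without correction for hemoglobin, the median was 0.35 beside 0.45 for all genes. Without P16hi 1, the library listed in a block of its own, the TMM median was -0.59, and without P16hi 3 it was -0.18. All genes had medians of -0.14 and -0.23 in these fits. Relative to them the members stood at -0.45 without P16hi 1 and at 0.05 without P16hi 3.

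**Figure D2:**
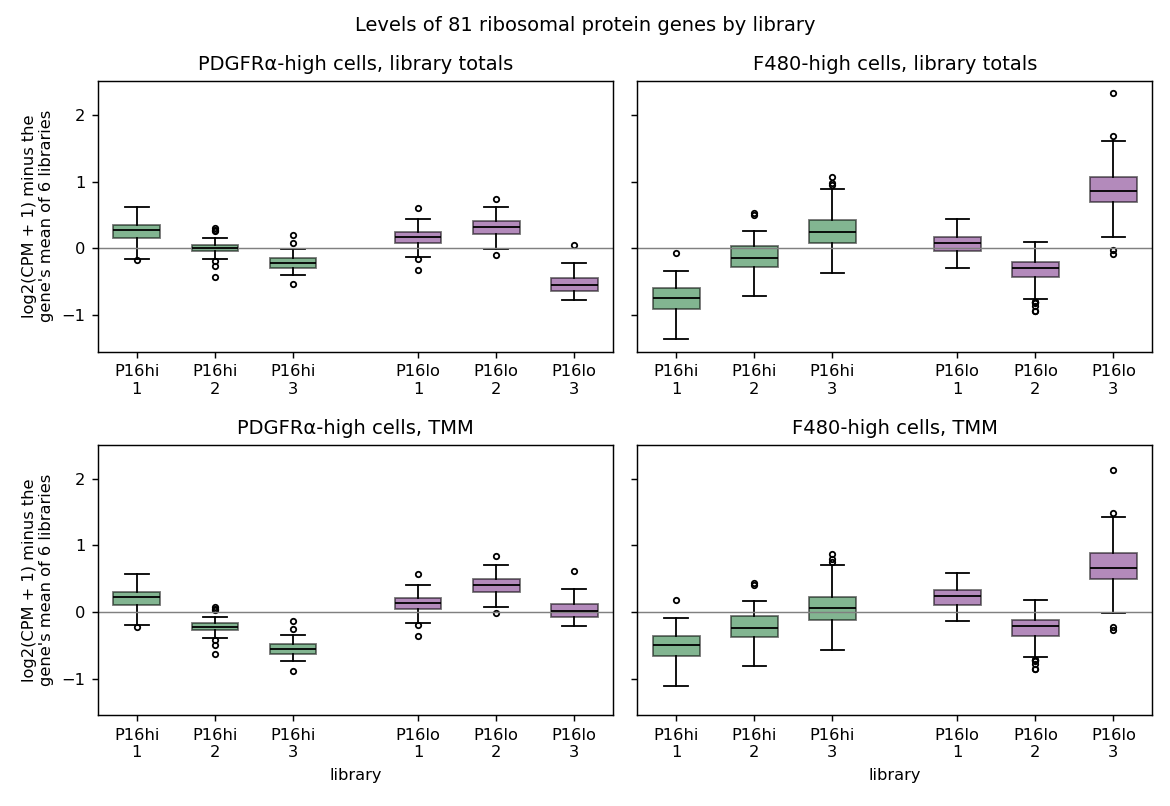
Log2(CPM + 1) of 81 ribosomal protein genes (Rpl3l and Rpl39l left out) minus each gene's mean over the 6 libraries of its population, by library, with library totals (top) or TMM (bottom). Boxes span the quartiles with the median as a line, whiskers reach 1.5 box lengths, P16hi is green and P16lo purple; under TMM the box of PDGFRα-high P16lo 3 moves up from the lowest place it has with library totals, and F480-high P16lo 3 is the highest under both.

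Under TMM, 16 members were lower in every P16hi library than in every P16lo library, as were 6.92% of all genes, and 1 was higher in every P16hi library, as were 7.92%. With library totals 0 members were lower throughout (0.543% of all genes) and 3 were higher throughout (17.2%), namely Rpl3l, Rpl7l1 and Rps6. With TPM after leaving out hemoglobin, 55 of 83 were lower throughout, beside 4.32% of all genes, and 1, Rpl3l, was higher throughout, beside 8.72%. The macrophage marker level, 17481, 14955 and 7339 CPM in P16hi cells and 28821, 5948 and 1204 CPM in P16lo cells, also differed widely between libraries, and its part in these values was not tested.

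Among core proteins of the small subunit, Rpsa, which is also known as a laminin receptor, had the lowest fold change. It had 1529, 1564 and 954 TMM CPM in P16hi cells, against 1859, 3135 and 2236 TMM CPM in P16lo cells. The groups did not overlap, but the fold change, -0.84 on the log2 scale (SE 0.38), did not pass edgeR's test (adjusted p = 0.802) and was -0.46 (SE 0.43) with library totals, where the groups overlapped. Rps27 had 1191, 1096 and 991 TMM CPM in P16hi cells, against 1438, 1737 and 1330 TMM CPM in P16lo cells, with no overlap and a log2 fold change of -0.46 (SE 0.31). Rps6 had 112, 73.1 and 67.5 TMM CPM in P16hi cells, against 70.3, 85.2 and 83.6 TMM CPM in P16lo cells. These groups overlapped, and the log2 fold change was 0.08 (SE 0.31) with TMM and 0.46 (SE 0.36) with library totals.

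In the large subunit, Rpl39, a small protein at the wall of the exit tunnel, had 296, 237 and 208 TMM CPM in P16hi cells, against 351, 425 and 375 TMM CPM in P16lo cells. All P16hi values lay below all P16lo values, and the log2 fold change was -0.64 (SE 0.31; edgeR's adjusted p = 0.805). Rpl5, a partner of 5S ribosomal RNA, had 446, 444 and 391 TMM CPM in P16hi cells, against 615, 748 and 566 TMM CPM in P16lo cells, again without overlap (log2 fold change -0.59, SE 0.30; edgeR's adjusted p = 0.823). Its partner Rpl11 had 1167, 839 and 635 TMM CPM in P16hi cells and 1183, 1411 and 880 TMM CPM in P16lo cells. The Rpl11 groups overlapped, with a log2 fold change of -0.39 (SE 0.37). With library totals, the log2 fold changes of Rpl39 and Rpl5 were -0.26 (SE 0.38) and -0.22 (SE 0.39), and both groups overlapped. The stalk proteins Rplp0, Rplp1 and Rplp2, which bind elongation factors, had log2 fold changes of -0.35 (SE 0.36), -0.33 (SE 0.36) and -0.39 (SE 0.37) with TMM, close to the median member.

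**Figure D3:**
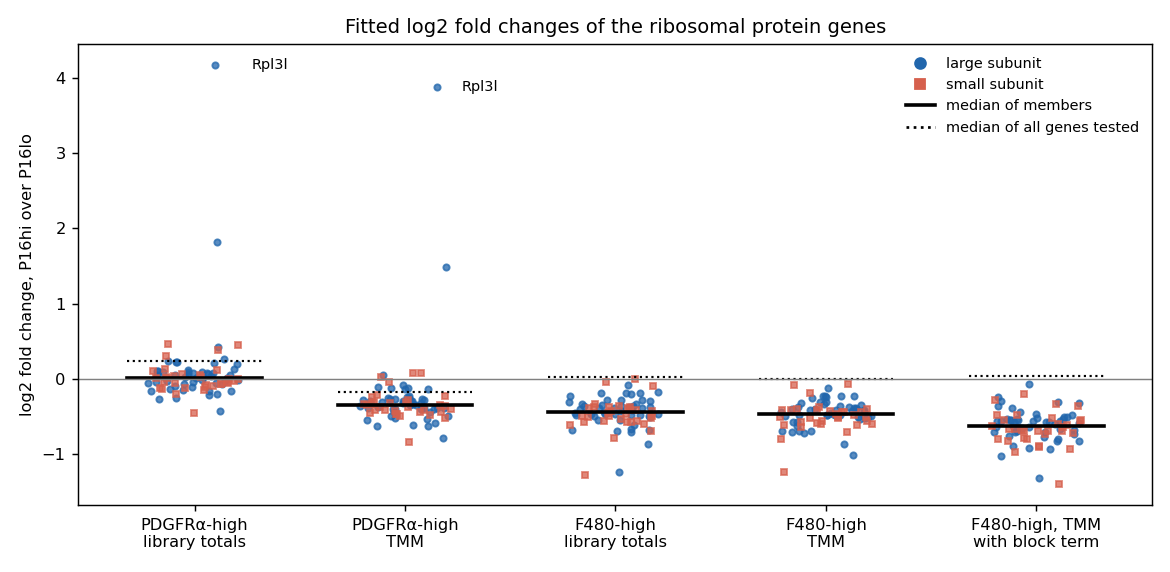
Fitted log2 fold changes (P16hi over P16lo) of the tested ribosomal protein genes, 1 point a gene, for PDGFRα-high and F480-high cells under library totals and TMM, and for F480-high cells with the column block as a term. Solid lines are the medians of the members and dotted lines those of all genes tested; the PDGFRα-high median is at 0.01 or -0.35 by scaling, with Rpl3l above 3 and Rpl39l next, while the F480-high medians lie between -0.44 and -0.63.

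Rpl3l (chr17:24727826-24736143, GRCm38), the muscle paralog of Rpl3, had the highest fold change of the members. It had 28.6, 18.3 and 6.29 TPM in P16hi cells, against 1.24, 1.59 and 0.331 TPM in P16lo cells, so every P16hi library was above every P16lo library. Its estimated counts were 111, 113 and 70.3 in P16hi libraries and 20, 28 and 9.15 in P16lo libraries. With hemoglobin left out of the TPM it had 28.8, 20.7 and 6.78 TPM in P16hi cells, against 1.26, 2.56 and 1.11 TPM in P16lo cells, again with no overlap. Its log2 fold change was 3.88 (SE 0.85) with TMM and 4.18 (SE 0.86) with library totals, and neither passed edgeR's test (adjusted p = 0.324 and 0.134). DESeq2 gave 3.91 (adjusted p = 2.12e-04), and limma on log2(TPM + 1) gave 3.03 (adjusted p = 0.0172). An exact two-sided permutation test gave p = 0.1, the smallest that 3 against 3 libraries allow. Rpl3 itself, with hemoglobin left out, had 1578, 1293 and 1341 TPM in P16hi cells, against 1413, 1725 and 1513 TPM in P16lo cells, and these groups overlapped. Rpl3l made up 1.79%, 1.58% and 0.503% of the pair in P16hi cells, against 0.0889%, 0.148% and 0.0736% in P16lo cells.

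The summed level of 14 cardiomyocyte markers had the same order among P16hi libraries. It was 10482, 7592 and 3644 CPM in P16hi cells, against 353, 280.2 and 277.7 CPM in P16lo cells, with 0 of the 14 markers at 0 in any of these 6 libraries, although cardiomyocytes were removed before the sort. Its part in the Rpl3l result was not tested. In F480-high cells Rpl3l had 0.0505, 1.45 and 1.86 TPM in P16hi libraries, against 0.172, 0.325 and 0.495 TPM in P16lo libraries, and did not pass the filter on low counts. The groups overlapped there, and P16hiF480hi 3 had the highest cardiomyocyte marker level of that population, 1174 CPM, against 3.80 to 27.7 CPM in its other libraries.

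**Figure D4:**
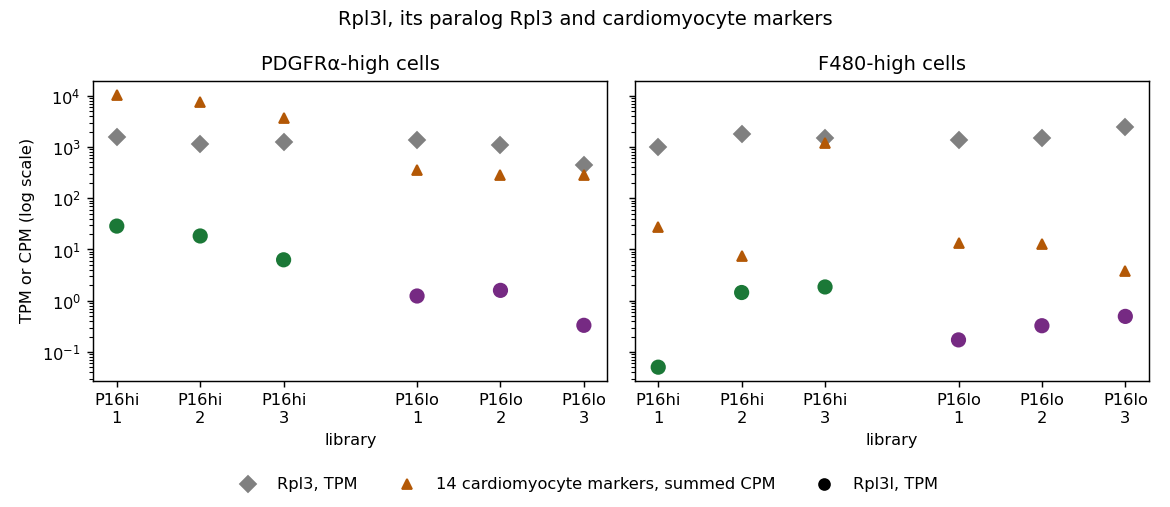
TPM of Rpl3l (circles, green in P16hi and purple in P16lo) and of Rpl3 (diamonds), and the summed CPM of 14 cardiomyocyte markers (triangles), in each library on a log axis. In PDGFRα-high cells Rpl3l is 6.29 to 28.6 TPM in P16hi and at most 1.59 TPM in P16lo (hemoglobin kept in), and the marker sum is also higher in each P16hi library.

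Rpl22l1, the paralog of Rpl22, made up 79.9%, 78.9% and 82.2% of the TPM of its pair in P16hiPDGFRahi libraries, against 77.1%, 84.8% and 85.4% in P16loPDGFRahi libraries, and 80.8%, 86.3% and 85.5% in P16hiF480hi libraries, against 85.6%, 86.1% and 90.2% in P16loF480hi libraries. Per length it was thus the more abundant copy in all 12 libraries, and its groups overlapped in both populations. This ranking rests on the implied lengths, 282 bases for Rpl22l1 and 1998 bases for Rpl22. Estimated counts were higher on Rpl22 in every library but P16loF480hi 3, such as 830 against 506 in P16hiPDGFRahi 1. In P16loF480hi 3 they were 5965 on Rpl22 and 8053 on Rpl22l1. Rps27l, the paralog of Rps27 and a known target of p53, made up 10.6%, 7.94% and 5.86% of its pair in P16hiPDGFRahi libraries, against 5.83%, 5.04% and 6.68% in P16loPDGFRahi libraries. In P16hiF480hi libraries it made up 11.1%, 9.98% and 6.86%, against 10.9%, 12.4% and 1.63% in P16loF480hi libraries. Rpl39l, a paralog best known from mouse testis, was among the lowest members. It had only 15, 9 and 11 estimated counts in P16hiPDGFRahi libraries and 7, 19 and 7 in P16loPDGFRahi libraries. With hemoglobin left out of the TPM it had 11.5, 4.38 and 2.43 TPM in P16hiPDGFRahi libraries and 0.684, 3.72 and 2.00 TPM in P16loPDGFRahi libraries, which overlapped, and a log2 fold change of 1.48 (SE 1.11). Rpl7l1, on the same scale, had 32.1, 38.5 and 40.1 TPM in P16hiPDGFRahi libraries and 30.9, 39.2 and 36.6 TPM in P16loPDGFRahi libraries. These groups overlapped, with a log2 fold change of 0.05 (SE 0.27) with TMM or 0.42 (SE 0.37) with library totals.

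F480-high cells, P16hi against P16lo. All 82 members tested had a fitted fold change below 0, but none passed the test, and the size rested much on P16lo 3. The members took 4.65%, 7.51% and 9.09% of counts in P16hi cells (7.08% ± 2.25, SD, n = 3), against 8.04%, 6.25% and 14.6% in P16lo cells (9.61% ± 4.37, SD, n = 3). The groups overlapped, and P16lo 3 was higher than every other library of the series. Leaving out hemoglobin, which took at most 0.363% of counts here, changed no share by more than the spread between replicates.

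edgeR with TMM called 0 of 82 members higher and 0 lower, where 0% of all 12490 genes passed in either direction. At an unadjusted p under 0.05 the counts were 0 higher (1.94% of all genes) and 0 lower (0.304%). DESeq2 called 0 members in either direction (0.016% of all genes higher, 0.00801% lower), and limma on log2(TPM + 1) called 0 (0% of all genes in either direction). The median log2 fold change of the members was -0.47 with TMM and -0.44 with library totals, beside -0.00 and 0.02 for all genes. The medians were -0.44 in the large and -0.51 in the small subunit. With TMM 100% of the tested members lay below 0, as did 50% of all genes. Without P16lo 3, the median was -0.22 with TMM and -0.04 with library totals, beside 0.08 and 0.22 for all genes. Relative to all genes the members then stood at -0.30 and -0.26. In these fits 17 and 36 of 83 members were above 0 (20.5% and 43.4%), beside 56.1% and 65.2% of all genes. The other 5 libraries left out in turn gave TMM medians from -0.67 to -0.38.

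Within the column blocks the groups did not overlap. In block 1, the members took 7.51% and 9.09% of counts in P16hi cells, against 14.6% in the P16lo library, and in block 2 they took 4.65% in the P16hi library, against 8.04% and 6.25% in P16lo cells. Under TMM, 73 of 82 members were lower in P16hi than in P16lo libraries within both blocks, beside 17.7% of all genes, and 0 were higher within both, beside 17.5%. With library totals the count was 77 of 82, beside 22.2% of all genes, and 0 were higher, beside 13.8%. Over all libraries of both blocks together, 8 of 82 were lower throughout under TMM (3.48% of all genes) and 1, Rps4x, with library totals (2.57%), and 0 were higher throughout under either scaling (3.37% and 3.56% of all genes). The median log2 ratio of P16hi to P16lo was -0.73 in block 1 and -0.50 in block 2 with TMM, and -0.78 and -0.62 with library totals. Each block rests on 1 library of a group, and that of block 1 is P16lo 3, whose B cell markers were high and macrophage markers low. Their part in the result was not tested.

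With the column block as a term, the median log2 fold change was -0.63, all 82 members were below 0, and 18 were lower at an unadjusted p under 0.05, beside 2.79% of all genes. None passed after adjustment, and 0% of all genes did. The same fit with library totals gave a median of -0.71 and 40 members lower at an unadjusted p under 0.05, beside 4.15% of all genes, and again 0 after adjustment. The smallest p-values under TMM with the term belonged to Rpl22l1 (log2 fold change -1.03, SE 0.30), Rps18 (-0.91, SE 0.28), Rps15a (-0.94, SE 0.30), Rpl12 (-0.93, SE 0.30) and Rps27 (-1.41, SE 0.46). edgeR's adjusted p was 0.725 for each of these 5.

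Rpl12, a protein at the base of the stalk, had the smallest p among members without the block term. It had 293, 242 and 322 TMM CPM in P16hi cells, against 522, 381 and 666 TMM CPM in P16lo cells. No P16hi library reached a P16lo library, and the log2 fold change was -0.87 (SE 0.37; edgeR's adjusted p = 0.999). With library totals the values were 246, 258 and 368 CPM in P16hi cells, against 468, 359 and 761 CPM in P16lo cells, which overlap by P16hi 3 and P16lo 2. Rps15a, of the small subunit, had 481, 528 and 674 TMM CPM in P16hi cells, against 963, 644 and 1329 TMM CPM in P16lo cells (log2 fold change -0.80, SE 0.41; edgeR's adjusted p = 0.999). Here P16hi 3 lay above P16lo 2. Rpl39 had 178, 130 and 240 TMM CPM in P16hi cells, against 339, 218 and 343 TMM CPM in P16lo cells, with the same single overlap and a log2 fold change of -0.71 (SE 0.39).

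Fold changes close to 0 in this population included those of Rps6 (log2 fold change -0.08, SE 0.35) and Rpl41 (-0.13, SE 0.62). Rps6 had 39.1, 89.0 and 67.7 TMM CPM in P16hi cells, against 68.7, 64.9 and 73.2 TMM CPM in P16lo cells. Rpsa had 868, 1411 and 860 TMM CPM in P16hi cells, against 1738, 1353 and 1729 TMM CPM in P16lo cells, with a single overlap between P16hi 2 and P16lo 2 (log2 fold change -0.62, SE 0.39). Rps19, mutated in human Diamond-Blackfan anaemia, had 828, 1323 and 1682 TMM CPM in P16hi cells, against 1583, 1045 and 3266 TMM CPM in P16lo cells, and the groups overlapped.

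P16lo 3 also differed from the others in which members it held. Rps27 had 3490, 6889 and 9579 TPM in P16hi cells, against 6451, 4772 and 33789 TPM in P16lo cells. It made up 10.3% of the members' TPM in P16lo 3, against 2.95% to 4.59% in the other 5 F480-high libraries, and its log2 fold change of -1.25 (SE 0.86) became 0.14 without P16lo 3. Rpl10, of the large subunit, stood at 1.69% of the members' TPM in P16lo 3, against 2.55% to 5.75% in the other 5. The ratio of small-subunit to large-subunit TPM was 1.05 in P16lo 3, against 0.79 to 0.87 in the other 11 libraries. This ratio is not separate from the Rps27 value, since Rps27 held 33789 of the 168827 TPM of the small subunit in P16lo 3.

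**Figure D5:**
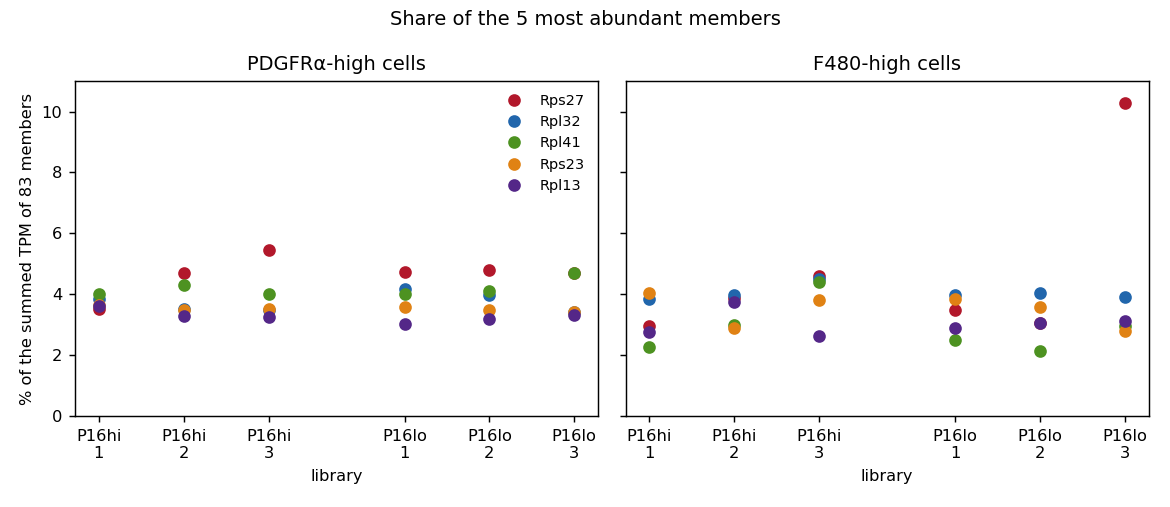
Share (%) of the members' summed TPM held by each of the 5 members with the highest mean level, by library, P16hi at the left and P16lo at the right of each panel. The 5 genes stay between 2% and 6% in 11 libraries, and Rps27 reaches 10.3% in F480-high P16lo 3.

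A fit of all 12 libraries tested whether the P16hi minus P16lo difference of a gene was unequal in the 2 populations. edgeR called 0 of 83 members with a higher and 0 with a lower difference in PDGFRα-high cells, where 0% of all 14073 genes passed in either direction. At an unadjusted p under 0.05 the counts of members were 0 and 0, beside 0.803% of all genes higher and 1.32% lower. The median difference of the members was 0.17 on the log2 scale, beside -0.20 for all genes. With library totals it was 0.45, beside 0.13 for all genes, and 81 of 83 members were above 0, beside 55.8% of all genes. With TMM the members' median was -0.09 without P16loF480hi 3 and -0.04 without P16hiPDGFRahi 1, beside -0.28 and -0.14 for all genes. Rpl3l had the smallest p, with a difference of 2.23 (SE 1.40; edgeR's adjusted p = 0.9999), followed by Rpl7l1 at 0.57 (SE 0.37) and Rpl39l at 2.53 (SE 1.95). Rpl3l had only 2.43, 25 and 27.8 estimated counts in P16hiF480hi libraries and 3.98, 7 and 9 in P16loF480hi libraries. It failed the filter on low counts in F480-high cells and entered this fit through the PDGFRα-high libraries, so its rank here is no separate result. Differences below 0 included those of Rpl32l at -0.29 (SE 0.70) and Rpsa at -0.18 (SE 0.52).

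Genes that make, resemble or regulate the cytosolic ribosome gave no call either. edgeR with TMM called 0 members of each list in either population and in the test of the difference. The 5 listed genes of the cytosolic ribosome outside the rule had median log2 fold changes of -0.45 in PDGFRα-high and -0.44 in F480-high cells, near those of the members. The 78 genes of the mitochondrial ribosome, which translates mitochondrial messages, had a median of 0.15 in PDGFRα-high cells, with 56 above 0. Of all genes there, 40.4% were above 0. The cytosolic members had a median of -0.35 under the same scaling, and the difference between the lists was not tested. With library totals the medians were 0.54 for the mitochondrial and 0.01 for the cytosolic ribosome. The mitochondrial ribosome took 0.756%, 0.655% and 0.596% of TPM in P16hi cells, against 0.564%, 0.454% and 0.193% in P16lo cells. With hemoglobin left out, the shares were 0.761%, 0.739% and 0.642% in P16hi cells, against 0.574%, 0.729% and 0.649% in P16lo cells, and the groups overlapped. The cardiomyocyte marker level, given beside Rpl3l, was also higher in each P16hi library, and its part was not tested. In F480-high cells the mitochondrial list had a median of -0.19, with 52 of 78 below 0, beside 50% of all genes.

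Under TMM, all genes tested had medians of -0.17 in PDGFRα-high and -0.00 in F480-high cells, with 59.6% and 50% below 0. The 47 genes of ribosome biogenesis had medians of -0.22 in PDGFRα-high and -0.27 in F480-high cells, with 32 and 40 genes below 0. The smallest p in F480-high cells belonged to Nip7, with a log2 fold change of -0.87 (SE 0.27; edgeR's adjusted p = 0.999). Nop56, of the particle that methylates ribosomal RNA, had the smallest p in PDGFRα-high cells (-0.81, SE 0.44). The 19 other genes with TOP messages, mostly translation factors, had medians of -0.16 and -0.27. Pabpc1, the poly(A)-binding protein, was lowest in PDGFRα-high cells, at -1.24 (SE 0.48; edgeR's adjusted p = 0.710). The 20 regulators of the mTOR and Myc pathways had medians of -0.27 in PDGFRα-high and -0.03 in F480-high cells. Myc itself had a log2 fold change of -0.71 (SE 0.40) in F480-high cells. Of the genes of p53 and its response to free ribosomal proteins, 4 were tested in PDGFRα-high cells (median -0.19) and 5 in F480-high cells (median 0.12). With library totals the PDGFRα-high medians were 0.19 for biogenesis, 0.24 for TOP messages, 0.14 for the regulators and 0.19 for the p53 genes, and 0.24 for all genes, so their direction in that population depends on the scaling.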

How the data were processed

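A table for each sorted population, holds the RNA-seq values of its libraries, 12 in all. Per the labels' protocols, cDNA was fragmented by a transposase and sequenced as DNA nanoballs. The submitters' processing notes list HISAT, GRCm38 and mm10. The version of HISAT, the counter and whether strand was used were not given in the sources used here. Per the file headers, the deposited values are estimated counts (expected counts, not whole in 13.0% to 19.2% of values), TPM, FPKM and a normalised read count of the authors, a signal equal to the count times 1 factor per library, which was not used. In P16hiF480hi 3 the deposited TPM were not a constant multiple of the deposited FPKM (ratio 0.315 to 2.76 between the 5th and 95th percentile of genes), unlike in the other 11 libraries, so TPM here are the authors' FPKM rescaled to 1000000 in every library.

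The 2 column blocks of each table were merged on the gene identifier and a gene missing from a block was set at 0; no member was missing. Counts were rounded and fitted with edgeR 4.0.16 in R 4.3.3 (filterByExpr with a minimum count of 10, TMM, robust quasi-likelihood test, Benjamini-Hochberg over all genes, threshold 0.05), separately for each population, P16hi over P16lo, and over all 12 libraries for the difference between populations. Standard errors come from the F statistic. CPM are per 1000000 of the library total or, where named TMM CPM, of the TMM-scaled size. A further exact permutation test used log2(CPM + 1). DESeq2 1.42.0, limma 3.58.1 on log2(TPM + 1), other scalings, left-out libraries and block terms were alternatives. The fits were also run on counts simulated with the same dispersion for every gene. These counts had no hemoglobin, block or cell type differences between libraries, so they do not test how the fits handle such differences. Total counts per library were 3.16 M to 27.9 M (M, 1000000), and for members with many counts precision is set by the 3 libraries in each group rather than by counting error. Members with few counts, such as Rpl3l and Rpl39l, also carry counting error.

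Named members were the 3 of smallest p in each direction of each comparison, the 5 of highest and the 5 of lowest mean TPM, paralogs with their core copies, the stalk proteins, Rpsa, Rpl5, Rpl11, Rps6, Rps19 and Rpl22. A member that this rule selected is not reported here. Rps4x, Rpl10, Rps18 and Rpl22l1 in the block fit were named after their values were seen, as were the members whose start sequences are shown. The members, lists and tests were chosen with earlier results of these data known, and the comparison within column blocks was made after the tables were seen.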

Additional observations from a re-analysis of the deposited data

How the results depend on the processing

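No setting changed the count of members called in F480-high cells or in the test of the difference between populations, which was 0 in each direction throughout. In PDGFRα-high cells, Rpl3l was the 1 member called higher in P16hi cells by DESeq2, and the 1 called by limma on log2(TPM + 1), where edgeR called 0. The median log2 fold change there was -0.35 with TMM, 0.011 with library totals and 0.35 with limma on TPM, whose values hold the hemoglobin share. The median was -0.31 with library totals without hemoglobin genes, -0.33 with DESeq2 size factors in edgeR and -0.35 with TMM factors computed without the members. With library totals it was 0.020, 0.12, 0.088 and 0.17 without P16hi 2, P16hi 3, P16lo 1 and P16lo 2, and -0.13 and -0.20 without P16hi 1 and P16lo 3. With TMM, leaving out 1 library gave -0.59 to -0.18 in PDGFRα-high cells, -0.67 to -0.22 in F480-high cells and -0.09 to 0.38 for the difference. Of single members, Rpl39 (0.068) and Rpl5 (0.12) were above 0 in PDGFRα-high cells with limma on TPM, Rps6 ran from -0.20 to 0.21 with 1 library left out, and Rps27 in F480-high cells ran from -1.69 to 0.14, or 0.36 with library totals, where P16lo 3 was left out. The cause was not tested.

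As shares of summed TPM, which weigh short genes more than counts do, the members held 19.98%, 17.2% and 17.3% in P16hiPDGFRahi, against 23.0%, 17.4% and 7.41% in P16loPDGFRahi, and 11.8%, 17.8% and 20.9% in P16hiF480hi, against 18.4%, 15.6% and 32.9% in P16loF480hi. Leaving out hemoglobin moved the share of counts in P16loPDGFRahi 3 to 10.8%, from 5.94%.

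Same-numbered replicates did not deviate together throughout. Each library's deviation from its group mean was correlated across genes. The correlations were 0.13, -0.03 and 0.30 for numbers 1 to 3 in PDGFRα-high and 0.41, -0.26 and 0.10 in F480-high cells. In F480-high cells P16hi 1 had 0.41 and 0.45 with P16lo 1 and 2 of its own column block, and -0.45 with P16lo 3. P16hi 2 and 3 had 0.29 and 0.10 with P16lo 3 of their block, and values below 0 with P16lo 1 and 2. The deviations within a group sum to 0 for each gene, so the values with P16lo 3 are not separate from those with P16lo 1 and 2. With the replicate block, the member medians were -0.37, -0.44 and 0.12 for the difference, and 0 members were called. List shares and member spread in TPM without hemoglobin, library totals with left-out libraries, the block term with library totals and limma on the TPM exactly as deposited (F480 median -0.49) were chosen after seeing the data.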
